A study of Mus musculus with 12 samples.

Results

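The response of wild-type (WT) mouse ventricular myocytes to isoprenaline (Iso) was read from 3 arrays of treated and 3 arrays of untreated cells, out of 12 arrays in the series. A gene was compared if its signal exceeded the array median on 3 or more of the 12 arrays, and 13737 of the 24704 genes measured met this rule. The cells came from adult animals, were freed enzymatically by Langendorff perfusion of the heart and were kept for 24 h either with 100 nM Iso or without it. WT here means the control animals of a line lacking CaMKIIδ and CaMKIIγ, 2 forms of the calcium/calmodulin-dependent kinase II, in double knockouts (CaMKII DKO). The other 6 arrays are of DKO myocytes under the same conditions, and they enter the fit only through the estimate of the spread and through the test of whether the Iso difference differed between genotypes. The labels place untreated and treated array 1 with mouse 4, arrays 2 with mouse 5 and arrays 3 with mouse 6, so each animal is its own control. The sources used here do not give how the knockout was made, the strain of the animals or whether the controls carry any altered allele. The design text asks whether Iso-driven phosphorylation of histone H3 at serine 28 goes along with changed gene expression.

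Isoprenaline is an agonist of beta-adrenergic receptors, the receptors through which adrenaline and noradrenaline raise heart rate and contractile force. The receptors activate adenylyl cyclase through a stimulatory G protein, the cyclic AMP formed activates protein kinase A, and the kinase phosphorylates calcium handling proteins as well as the transcription factor CREB, which binds cyclic AMP response elements in promoters. Phosphodiesterases, receptor kinases, arrestins and RGS proteins limit the signal, and CaMKII is activated downstream through calcium.

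Values are log2 expression, so a difference of 1 is a doubling. The 18 ventricular myocyte markers had a mean level of 11.4 to 11.5 on the untreated and 11.5 to 11.6 on the treated WT arrays, although Irx4, a ventricular transcription factor, lay near the array median at 3.44 to 3.71 and 3.30 to 3.61. Markers of other cells were present too. The endothelial list (18 of 20 measured markers tested, Ly6c1 and Plvap dim) had a summed level, on the log2 scale, of 12.04 to 12.33 on the untreated and 12.07 to 12.78 on the treated arrays. Most of this sum was Fabp4, which is also on the adipocyte list. It read 11.57 to 11.87 untreated and 11.52 to 12.37 treated. The macrophage list (22 of 23 tested, Ptprc dim) summed to 10.3 to 10.5 and 10.4 to 10.5. Atrial genes separated the treated arrays from each other. Sln, the atrial inhibitor of the calcium pump, read 5.04, 6.29 and 3.96 on untreated arrays 1 to 3 and 8.33, 8.11 and 3.27 on treated arrays 1 to 3. Myl7, the atrial regulatory light chain, read 5.74, 6.54 and 4.29, then 8.16, 7.93 and 4.82. In mice 4 and 5 both genes were thus far brighter after Iso, and in mouse 6 they stayed low. Over the whole atrial list (10 of 11 markers tested, Bmp10 dim) the mean level was 5.20, 5.38 and 4.86 untreated and 5.72, 5.73 and 4.86 treated, and the summed level was 12.4 to 13.1 untreated and 11.8 to 12.6 treated; Nppa, its brightest member, read lower with Iso. The part of atrial cells in the results was not tested. Without treated arrays 1 and 2, which leaves 1 treated array, the difference moved by over 1.5 times or turned to the opposite sign in 61 of 164 genes followed, among them Hadhb (0.77 to 0.22), Thbs1 (0.73 to 0.19), Rsad2 (0.53 to 0.03), Snhg6 (-0.66 to -0.23), Ttn (0.57 to 0.25), Ryr2 (0.39 to 0.20), Trdn (0.65 to 0.36), Il1rn (0.75 to 0.43), Ccn2 (-0.47 to -0.90) and H2bc7 (-0.99 to -1.79). Arrays correlated with the others across genes at a median of 0.984 to 0.988, apart from untreated DKO array 3 at 0.956. In a bulk sample fewer cells of a type and less RNA per cell cannot be told apart.

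The genes that stood out most are small RNA genes, so their RNA sequences are shown first. For the microRNA gene with the second largest rise, Mir1932, and for Mir3097, which had one of the larger differences, RefSeq (build GRCm38.p6) holds the mature products. Capitals mark the seed, bases 2 to 8, with which a microRNA pairs to its targets.
mmu-miR-1932: gUUGCGGAcagcgcuaggucgg
mmu-miR-3097-5p: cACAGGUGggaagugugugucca
mmu-miR-3097-3p: cUCAGACCuuucuaccugucag
The first lies at chr11:119390524-119390545 on the plus strand, and the others at chr5:35021050-35021072 and chr5:35021094-35021115, also on the plus strand. The 3 seeds differ from each other, and 0 other mature microRNAs of the 1738 in the table share any of them. In the hairpin from which miR-1932 is cut, with the mature product in capitals, the product occupies the 3′ arm.
Mir1932 hairpin: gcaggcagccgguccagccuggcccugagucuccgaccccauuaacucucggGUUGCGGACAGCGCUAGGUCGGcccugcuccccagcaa
The probe sets are named after the genes, and whether they detect the mature RNA, the hairpin or a longer transcript of the locus was not determined here. The gene Mir1932 lies inside Rnf213 and Mir3097 inside Rgs12.

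Iso raised 3 genes and lowered 0 at an adjusted p under 0.05 in limma's test, which is 0.0218% of the genes tested in the upward direction. The 3 were Mir5112, Mir1932 and Esr1, the gene of estrogen receptor alpha. At an unadjusted p under 0.05, 475 genes (3.46%) were higher and 445 (3.24%) lower, 920 in all (6.7%), where 687 are given by chance. A difference above 1 was seen in 29 genes, 24 of them higher and 5 lower. The treated arrays lay above all untreated arrays in 983 genes (7.16%) and below all of them in 1156 (8.42%). The median difference was -0.01, and 47.8% of genes were above 0. Normalisation gave the arrays 1 shared distribution, so a shift common to all genes could not appear in these values. The median standard error was 0.17, and the number of arrays limits the precision of every value. Across genes, which are not independent replicates, the within-mouse differences correlated at 0.304 between mice 4 and 5, 0.131 between mice 4 and 6 and 0.158 between mice 5 and 6.

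**Figure D1:**
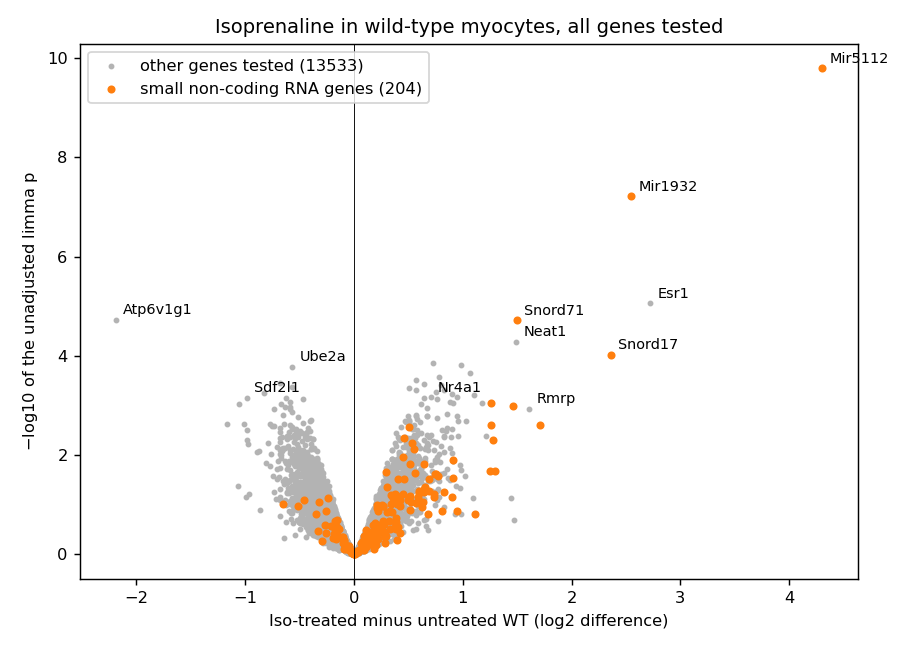
Each point is 1 of the 13737 genes tested, with the log2 difference of Iso-treated minus untreated WT myocytes on the x axis and −log10 of limma's unadjusted p on the y axis; orange points are the 204 small non-coding RNA genes. Mir5112 (4.30), Esr1 (2.72) and Mir1932 (2.55) lie far to the right, and Atp6v1g1 (-2.19) stands alone on the left.

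Mir5112 had the largest difference of all genes. It read 5.73, 5.81 and 6.46 on untreated arrays 1 to 3 and 10.26, 10.08 and 10.56 on treated arrays 1 to 3. The groups were far apart, and every mouse showed a difference of more than 4, namely 4.53, 4.27 and 4.11. The mean difference was 4.30 (SE 0.23, limma adjusted p = 2.2e-06), or 19.7-fold.

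Mir1932 lay near the array median of 3.31 without Iso, at 3.62, 3.80 and 3.84, and read 5.95, 6.20 and 6.76 with it. Again the groups did not overlap, and the mice differed by 2.33, 2.39 and 2.92. The mean difference was 2.55 (SE 0.23, limma adjusted p = 0.000418), or 5.85-fold.

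Esr1 encodes a nuclear receptor that acts as a transcription factor once bound by estrogen. It read 4.79, 4.76 and 5.17 on the untreated and 7.95, 6.64 and 8.30 on the treated arrays. Mouse 5 showed the smallest change, 1.88 against 3.16 in mouse 4 and 3.12 in mouse 6, and no treated array came near an untreated one. The mean difference was 2.72 (SE 0.38, limma adjusted p = 0.0394), or 6.59-fold. This call ended without any 1 of untreated arrays 1, 2 and 3, treated arrays 1 and 3, untreated DKO arrays 1 and 2 and each of the treated DKO arrays, where the adjusted p was 0.0514 to 0.296. It also ended with no filter on dim genes (0.148), with the filter at the 25th percentile (0.102) and without small RNA genes (0.109). The direction was the same in all 26 settings, with a difference of 2.39 to 3.39.

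Esr1 moved apart from the genes around it in hormone signalling. Of 21 tested coregulators, targets and enzymes of estrogen action, only Igfbp4, which binds insulin-like growth factors, had an unadjusted p under 0.05 (0.46, SE 0.16), with readings of 5.58, 5.37 and 5.51 untreated and 5.86, 6.11 and 5.88 treated. The median of that list was 0.03, against -0.01 over all genes. Of 32 nuclear receptors tested, 5 (15.6%) were higher and 2 (6.25%) lower at an unadjusted p under 0.05, with a median of -0.02. Over all genes the shares were 3.46% and 3.24%. Besides Esr1 and Nr4a1, the higher ones included Nr1d2, a repressor of the circadian clock (0.32), and the lower ones were Nr1h3, the liver X receptor alpha (-0.43, SE 0.14), and Nr0b2, a receptor without a DNA-binding domain (-0.35, SE 0.14). The count of higher receptors was 2 without untreated array 3 and 3 without untreated array 1 or treated array 1 or 2.

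**Figure D2:**
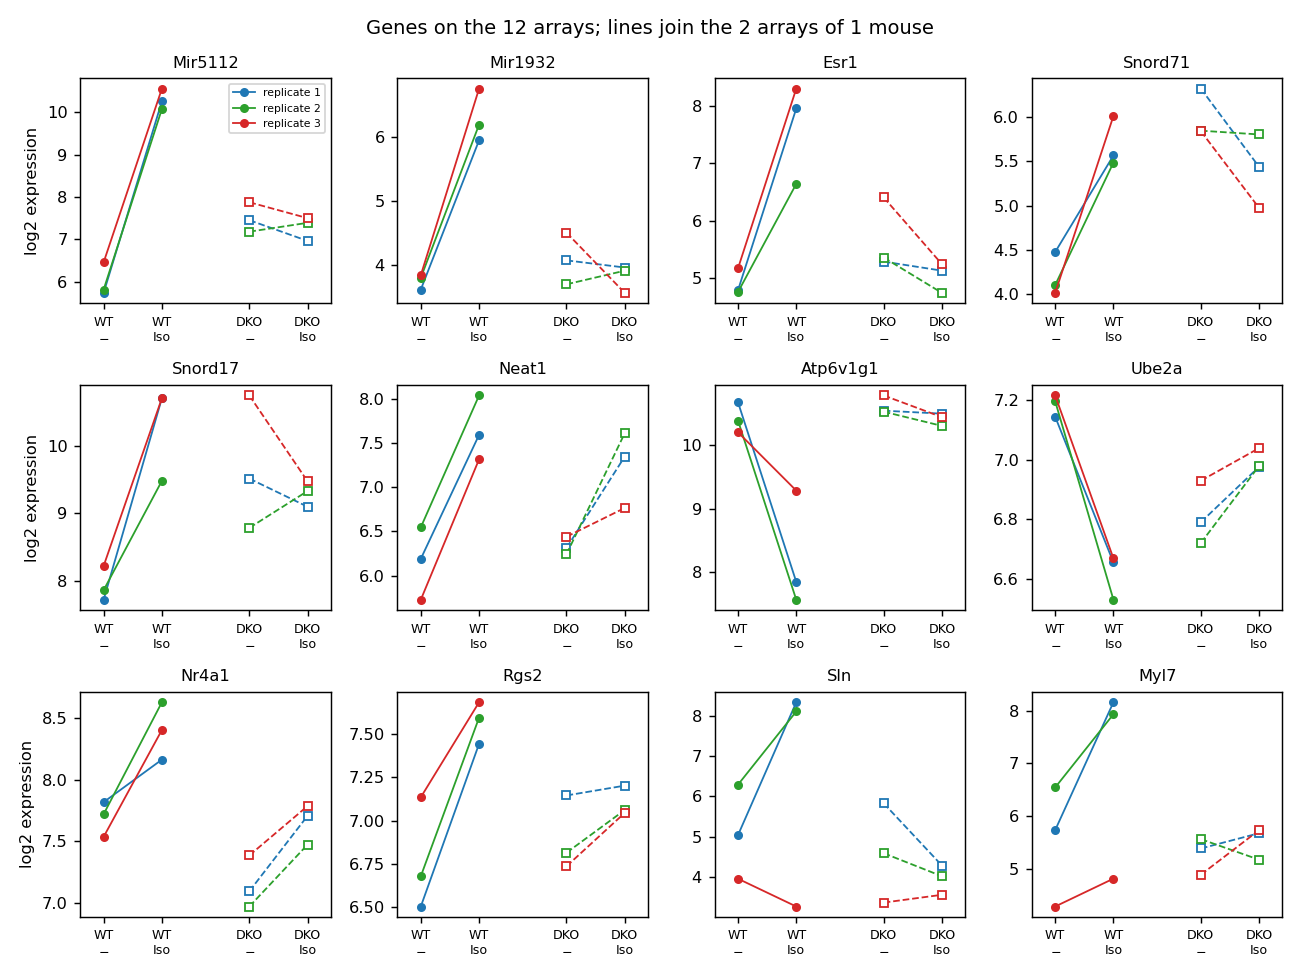
Log2 expression of 12 genes on all 12 arrays, in WT (filled circles, solid lines) and DKO (open squares, dashed lines); colours are replicates, and each line joins the untreated and the Iso-treated array of 1 mouse. Mir5112, Mir1932 and Esr1 climb in all 3 WT mice, and Atp6v1g1 and Ube2a descend. Sln and Myl7 climb in WT replicates 1 and 2, while in WT replicate 3 Sln descends and Myl7 climbs less.

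Below these 3 genes came a group just short of the threshold. Atp6v1g1 encodes part of the V-ATPase, the proton pump that acidifies lysosomes. It read 10.68, 10.39 and 10.21 untreated and 7.85, 7.57 and 9.29 treated. The groups did not overlap, but treated array 3 kept a much higher signal than the other 2, and the mean difference was -2.19 (SE 0.33, limma adjusted p = 0.0521). Its call turned on single arrays and on the fit. It passed with the mouse as a random block (adjusted p = 0.0450) and without treated array 3 (-2.72, adjusted p = 2.09e-05). It stayed short of the threshold with a fixed block for the mouse (0.128 over all arrays, 0.135 in the 6 WT arrays), and the adjusted p was 0.214 without treated array 2 (-1.86) and 0.511 without treated arrays 1 and 2 (-1.14).

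Snord71, a small nucleolar RNA that guides methylation of other RNAs, read 4.47, 4.10 and 4.01 untreated and 5.57, 5.49 and 6.02 treated. All 3 mice showed more signal with Iso, and the difference was 1.499 (SE 0.23, limma adjusted p = 0.0521). The adjusted p was 0.0450 with the mouse as a random block and 0.128 as a fixed block. In the 6 WT arrays it was 0.0582 with the fixed block and 0.0374 without it. Snord17, another of this family, read 7.73, 7.87 and 8.22 untreated and 10.70, 9.48 and 10.70 treated (2.36, SE 0.42, adjusted p = 0.184; 0.0137 with the mouse as a fixed block in the 6 WT arrays, 0.0472 in those arrays without the block).

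Neat1, the long RNA on which nuclear paraspeckles are built, read 6.19, 6.55 and 5.73 untreated and 7.59, 8.04 and 7.32 treated. Its 3 within-mouse differences, 1.40, 1.49 and 1.59, were nearly equal, and the mean of 1.49 (SE 0.25) had an adjusted p of 0.117 in limma's test. With the mouse as a fixed block in the 6 WT arrays it passed (adjusted p = 0.00762), against 0.0893 in those arrays without the block and 0.0789 with the block over all 12. Malat1, a neighbouring nuclear RNA, read 10.49, 10.90 and 10.36, then 11.43, 11.50 and 11.12 (0.77, SE 0.17, adjusted p = 0.333). Mhrt, a long RNA transcribed antisense to the myosin heavy chain genes, read 8.996, 9.12 and 9.09, then 9.62, 9.54 and 9.57 (0.51, SE 0.11, adjusted p = 0.333). In these 3 nuclear RNAs the treated arrays lay above all untreated ones, as in 7.16% of all genes, but they were picked by their p-values. Snhg6, a host of small nucleolar RNAs, was lower (-0.66, SE 0.21). In all, 3 of the 22 tested long nuclear RNAs and paraspeckle proteins were higher and 1 lower at an unadjusted p under 0.05, and their median was -0.03.

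Further genes with small p-values that did not pass were Resf1, a regulator of retroelement silencing (0.73, SE 0.14, limma adjusted p = 0.224), and Ighg2c, an immunoglobulin heavy chain gene (0.98, SE 0.18, adjusted p = 0.224). Ube2a, a ubiquitin-conjugating enzyme, read 7.14, 7.20 and 7.22 untreated and 6.66, 6.53 and 6.67 treated (-0.57, SE 0.11, adjusted p = 0.224). Its readings were tight within each group, unlike those of Atp6v1g1. Necap1, a factor of clathrin coats (0.78), Fam214a (0.57), and the mitochondrial carrier Slc25a16 (0.64) were higher with adjusted p-values of 0.308 to 0.329.

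On the low side, leaving out genes with predicted or clone names, the smallest p-values after those of Atp6v1g1 and Ube2a belonged to 10 genes with adjusted p-values of 0.333 to 0.35 in limma's test. They were Myh14, a non-muscle myosin (-0.57), Haus8, part of a spindle complex (-0.83), Sdf2l1 of the endoplasmic reticulum (-0.98), the J-domain protein Dnajc16 (-0.62), Pithd1 (-0.47), Lysmd2 (-0.59), the histone gene H4c9 (-1.05), the macrophage gene Ms4a7 (-0.67), the tetraspanin Tspan17 (-0.63) and Nudt6 (-0.59). In each of the 10 the treated arrays lay below all untreated arrays, as in 8.42% of all genes. The 10 were picked by their p-values, so this separation is no further support. Larger but noisier negative differences were those of the histone gene H2bc7 (-0.99), Rnpepl1 (-0.89), the secreted neuronal protein Lgi1 (-0.87) and Ankrd37 (-0.81).

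As a class, small non-coding RNA genes leaned up. Of 204 tested, 158 (77.5%) had a difference above 0, against 47.8% of all genes, and the median was 0.19. At an unadjusted p under 0.05, 31 of the 204 (15.2%) were higher and 0 lower, against 3.46% and 3.24% over all genes. The median difference was 0.22 in mouse 4, 0.10 in mouse 5 and 0.28 in mouse 6. The count of higher genes was 51 without untreated DKO array 3, 54 with only the 6 WT arrays, 60 with the mouse as a fixed block in them and 22 without untreated array 1; over all genes tested, those settings gave 720, 679, 678 and 305 higher genes in place of 475. With these genes left out of the fit, Mir5112 and Mir1932 among them, limma's count of genes passing was 0. The count below an unadjusted p of 0.05 was 892.

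Small nucleolar and Cajal body RNAs, which guide the chemical modification of ribosomal and spliceosomal RNA, made up 61 of them. Their median was 0.33, and 56 of 61 (91.8%) were above 0, against 47.8% of all genes. Within mice 4, 5 and 6 the median was 0.48, 0.07 and 0.46, so it was small in mouse 5. At an unadjusted p under 0.05, 12 (19.7%) were higher and 0 lower, against 3.46% and 3.24%. Snord14e read 7.68, 8.59 and 8.27 untreated and 9.57, 9.42 and 9.32 treated (1.25, SE 0.29, limma adjusted p = 0.333), and Snord89 read 8.58, 9.20 and 9.66, then 10.60, 10.14 and 10.55 (1.28, SE 0.38, adjusted p = 0.464). In both the lowest treated array was above the highest untreated one, as in 7.16% of all genes, but they were picked by their p-values. The count of 12 was 7 without untreated array 1 and 21 without treated array 2, without untreated DKO array 3 or with only the 6 WT arrays. The proteins that assemble these RNAs showed no such lean, and of 24 snoRNA-binding and ribosomal RNA processing factors, 0 were higher and 1 lower (Polr1b, a subunit of RNA polymerase I, -0.52, SE 0.17), with a median of -0.04.

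MicroRNA genes were the larger group, with 141 of 532 measured bright enough to test. Their median was 0.14, and 100 (70.9%) were above 0, against 47.8% of all genes. At an unadjusted p under 0.05, 17 (12.1%) were higher and 0 lower, against 3.46% and 3.24%. Mir187 read 4.96, 5.49 and 4.56 untreated and 6.39, 6.40 and 6.58 treated (1.46, SE 0.34, limma adjusted p = 0.349). Mir3097 read 3.58, 3.49 and 3.23, close to the array median, and then 4.42, 5.44 and 5.57 (1.71, SE 0.45, adjusted p = 0.442). Its spread among the treated arrays was wide, with mouse 4 lowest. The count of 17 was 28 without untreated DKO array 3 and 31 with only the 6 WT arrays. Among 17 microRNA processing factors, Tnrc6b, a partner of Argonaute, was higher (0.43, SE 0.18) and the median was 0.08.

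Other structural RNAs of the nucleus were few. Rmrp, the RNA of RNase MRP, read 3.80, 4.78 and 4.87 untreated and 6.54, 5.70 and 6.04 treated (1.61, SE 0.38, limma adjusted p = 0.35). Rn7sk, which holds the elongation factor P-TEFb inactive, was among the brightest genes and read 12.95, 13.16 and 13.03, then 13.41, 13.25 and 13.36 (0.29, SE 0.11). Rnu11, an RNA of the minor spliceosome, differed by 0.56 (SE 0.22). Their medians by group rest on 6 RNA polymerase III transcripts (0.07) and 1 spliceosomal RNA.

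Many small RNAs are cut from introns of longer genes, so each was set beside the gene that encloses it in the RefSeq gene table. Enclosing genes were matched by position alone, whatever the strand, exon or intron, so a pair need not share a transcript. Of the 204, 103 lay inside 94 genes that were themselves tested. The median difference was 0.19 for these small RNA genes and 0.01 for their enclosing genes. Of 16 that were higher at an unadjusted p under 0.05, 1 had an enclosing gene that was higher too, Snora17 (1.29, SE 0.49) within the non-coding gene Snhg7 (0.36, SE 0.13), a pair named after its values were seen. Rnf213, which encloses Mir1932, read 3.67, 3.84 and 3.63 untreated and 4.07, 4.12 and 3.57 treated (0.21, SE 0.15). Ap1g1, which encloses Snord71, differed by 0.19 (SE 0.21), Snx5, which encloses Snord17, by 0.00 (SE 0.14), Hspa8, which encloses Snord14e, by -0.23 (SE 0.24), and Rgs12, which encloses Mir3097, by 0.05 (SE 0.13). None of these 5 enclosing genes reached even an unadjusted p below 0.05.

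**Figure D3:**
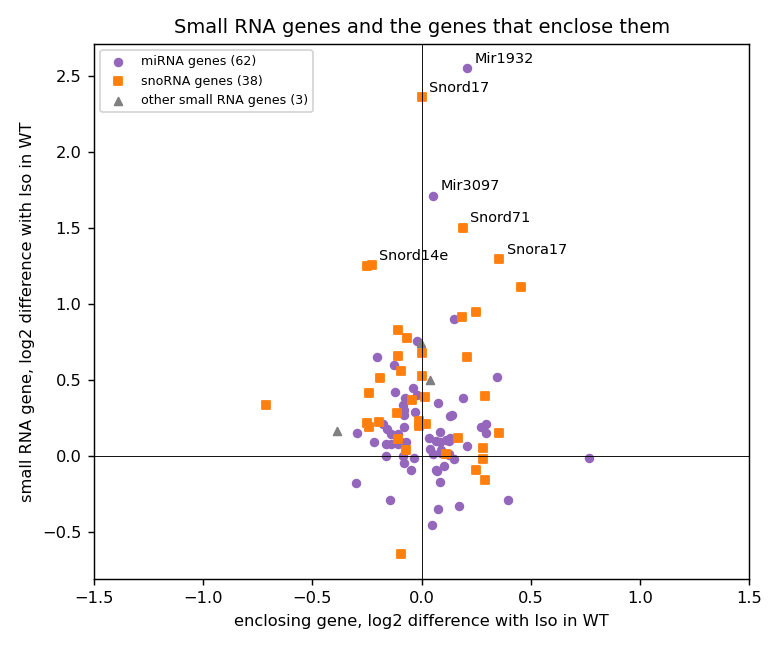
Each of 103 small RNA genes is placed by the log2 difference with Iso in WT of its enclosing gene (x axis) and its own (y axis); circles are microRNA genes, squares small nucleolar RNA genes and triangles others. Most points lie above the horizontal line at 0 while the enclosing genes lie on both sides of 0, and Mir1932 (2.55) sits above an enclosing gene at 0.21.

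The beta-adrenergic pathway itself was described from the receptor inwards. Of 15 tested receptors, G proteins and adenylyl cyclases, 0 were higher and 1 lower at an unadjusted p under 0.05, with a median of -0.08. That one was Adcy5, one of the main cyclases of the heart, at 6.54, 6.63 and 5.84 untreated and 5.55, 5.80 and 5.88 treated (-0.59, SE 0.22, limma adjusted p = 0.641); untreated array 3 overlapped the treated group.

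Among the brakes on the pathway, Rgs2, which speeds up the switching off of G proteins, was the clearest. It read 6.50, 6.68 and 7.13 untreated and 7.44, 7.59 and 7.68 treated (0.80, SE 0.17, limma adjusted p = 0.329). All 3 treated arrays lay above all untreated ones, as in 7.16% of all genes. Rgs2 was the only 1 of 16 receptor kinases, arrestins and RGS proteins with an unadjusted p under 0.05, and their median was 0.05. Phosphodiesterases, which degrade cyclic AMP and cyclic GMP, gave 0 higher and 0 lower among 17 tested, with a median of 0.02. Pde4b differed by 0.26 (SE 0.15), Pde4d by -0.11, Pde3a by -0.08, and the brightest members Pde6d and Pde4dip by -0.17 and 0.16. Of 21 genes of protein kinase A, its inhibitors and anchors, and Epac, the anchoring proteins Akap6 (0.35, SE 0.15) and Akap10 (0.29, SE 0.13) were higher, and the median was 0.06.

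At the nuclear end of the pathway, of 44 tested immediate early and CREB-responsive genes, 30 were above 0, 8 were higher and 2 lower at an unadjusted p under 0.05 (3.46% and 3.24% of all genes), and the median was 0.13, with 0.09, 0.15 and 0.10 in mice 4, 5 and 6. None passed over all genes. Nr4a1, an orphan nuclear receptor induced within minutes to hours of stimulation, read 7.82, 7.72 and 7.54 untreated and 8.16, 8.63 and 8.40 treated (0.71, SE 0.16, limma adjusted p = 0.333).

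Dusp1, a phosphatase that shuts off MAP kinases, read 7.23, 6.99 and 6.80 untreated and 7.75, 7.99 and 7.75 treated (0.82, SE 0.24, limma adjusted p = 0.46). Fos, a subunit of the AP-1 factor, read 5.18, 5.10 and 5.10, then 5.73, 5.76 and 5.58 (0.56, SE 0.16, adjusted p = 0.46). Dusp5, a phosphatase of nuclear ERK, read 4.62, 4.62 and 4.57, then 5.19, 5.03 and 5.07 (0.49, SE 0.17, adjusted p = 0.598). In all 3 genes the treated arrays lay above all untreated ones, as in 7.16% of all genes, and the treated readings were close together.

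Btg2, an antiproliferative early gene, differed as much as Dusp1 but with more scatter, from 6.76, 7.44 and 7.44 to 8.38, 7.65 and 8.07 (0.82, SE 0.32, limma adjusted p = 0.657). It was named after its values were seen. The kinase gene Sik1, a CREB target, differed by 0.38 (SE 0.17, limma adjusted p = 0.705). None of the following targets on the list had an unadjusted p below 0.05: Crem differed by -0.09, Per1 by 0.07, Nr4a2 by 0.24, Nr4a3 by -0.03 and the coactivator Ppargc1a by -0.17. The 2 lower genes, named after their values were seen, were the immediate early factor Egr1 (-0.32, SE 0.12) and the stress gene Gadd45b (-0.38, SE 0.16). The count of 8 was 4 without untreated array 1, 5 without treated array 1 or 2 and 1 without both, where the median was 0.00.

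For Dusp1, Fos and Nr4a1 the promoters are shown around the core of the cyclic AMP response element, TGACG or CGTCA on the other strand, in capitals. The stretches are from RefSeq (GRCm38.p6), 5′ to 3′ on the strand of the gene, within 250 bases before its start. They are examples that hold a core, and Rgs2 is included as the clearest brake on the pathway.
Dusp1: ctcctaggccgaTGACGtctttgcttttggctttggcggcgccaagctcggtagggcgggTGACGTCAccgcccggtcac
Fos: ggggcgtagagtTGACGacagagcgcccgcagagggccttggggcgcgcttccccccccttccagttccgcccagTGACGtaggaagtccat
Nr4a1: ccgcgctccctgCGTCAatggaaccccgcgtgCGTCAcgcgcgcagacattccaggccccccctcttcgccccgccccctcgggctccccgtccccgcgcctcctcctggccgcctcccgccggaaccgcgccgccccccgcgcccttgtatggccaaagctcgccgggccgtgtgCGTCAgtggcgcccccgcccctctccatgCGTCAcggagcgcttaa
Rgs2: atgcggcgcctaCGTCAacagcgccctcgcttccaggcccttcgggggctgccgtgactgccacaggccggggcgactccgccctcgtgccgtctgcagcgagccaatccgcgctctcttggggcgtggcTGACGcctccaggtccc
They lie at chr17:26508596-26508675 (minus strand), chr12:85473749-85473840 (plus), chr15:101266601-101266822 (plus) and chr1:144004200-144004346 (minus). RefSeq held a promoter for 7 of the higher list members, of which 5 had a core, and Ier5 and Zfp36 did not. Nr4a2 and Nr4a3, which did not reach an unadjusted p of 0.05, held 4 cores each. In Dusp1 2 cores overlap to form the full element, TGACGTCA. The core on either strand was found before the start of 54.5% of the 33 list members with a promoter in the table, and of 28.6% of the 10476 tested genes with one. The list was drawn up to hold CREB-responsive genes, so a higher share in it was partly built in. Over the genes higher at an unadjusted p under 0.05 the share was 31.3%, and over the lower genes it was 29.1%. The full element was found in 9.09% of the list members, 2.69% of all, 3.99% of the higher and 2.10% of the lower genes. Both start sites of Esr1 in the table had 0 cores. A match describes these letters only and does not show that CREB binds there.

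**Figure D4:**
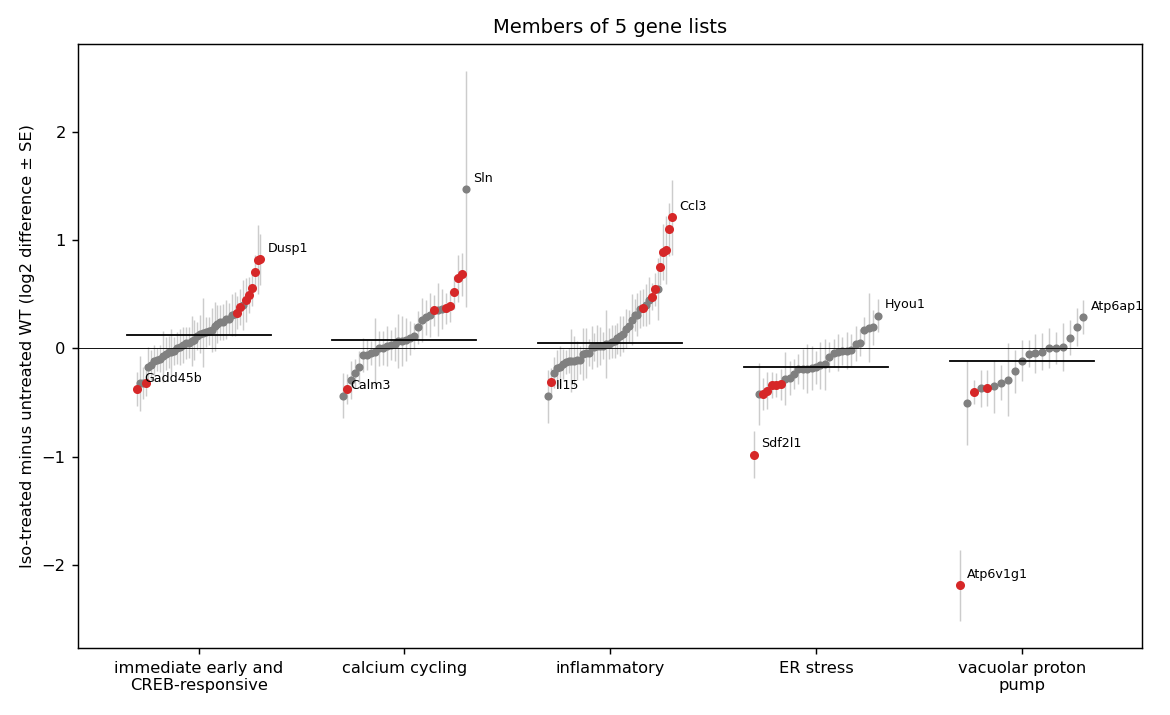
Each point is a tested member of 1 of 5 gene lists, placed by its log2 difference with Iso in WT with limma's SE; red points have an unadjusted p under 0.05, horizontal bars are list medians, and the lowest and highest members are named. The immediate early list has a tail of higher members up to Dusp1 (0.82), and most of the endoplasmic reticulum stress list lies below 0, down to Sdf2l1 (-0.98).

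Calcium cycling genes, which raise and lower cytosolic calcium with each beat, gave 6 higher and 1 lower of 32 tested at an unadjusted p under 0.05 (3.46% and 3.24% of all genes), with 23 above 0 (47.8% of all genes) and a median of 0.08. Mcu, the calcium channel of the mitochondrial inner membrane, read 5.80, 5.88 and 5.71 untreated and 6.44, 6.54 and 6.46 treated (0.68, SE 0.20, limma adjusted p = 0.46). Cacnb2, a subunit of the L-type calcium channel, differed by 0.52 (SE 0.15), and Trdn, which ties the release channel to its calcium store, by 0.65 (SE 0.22). The release channel Ryr2 read 9.98, 10.17 and 10.04, then 10.48, 10.62 and 10.27 (0.39, SE 0.14), and the pump inhibitor Pln 9.47, 9.59 and 9.84, then 9.97, 10.08 and 9.96 (0.37, SE 0.14).

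The calcium pump Atp2a2 read 12.80 on each untreated array and 12.78, 12.89 and 12.74 on the treated ones, a difference of 0.00 (SE 0.16). The lower member, named after its values were seen, was Sri, a calcium-binding modulator of Ryr2 (-0.37, SE 0.14). The count of 6 was 2 without untreated array 1, 3 without treated array 2 or without both treated arrays 1 and 2, and 10 without untreated DKO array 3. Of the kinases that read the calcium signal, Camk2g differed by 0.49 (SE 0.20), Camk2d by 0.17, Camk2a by 0.18 and Camk2b by -0.30, and the calcineurin target Nfatc1 by -0.32 (SE 0.14); of 18 CaM kinase and calcineurin genes 1 was higher and 1 lower.

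Most contractile genes differed little, but more of them lay above 0 than below. Of 44 sarcomere and Z-disc genes, 2 were higher and 3 lower at an unadjusted p under 0.05 (3.46% and 3.24% of all genes). The median was 0.07, and 31 (70.5%) were above 0, against 47.8% of all genes. Myl7 had the largest difference of the list, 1.45, and stayed low in mouse 6. Titin, Ttn, differed by 0.57 (SE 0.20) and the atrial light chain Myl4 by 0.61 (SE 0.21), while skeletal actin Acta1 read 12.48, 12.42 and 12.28, then 12.04, 12.21 and 11.91 (-0.34, SE 0.12), and Tpm2 differed by -0.55 (SE 0.22). Myh6, the main adult heavy chain, differed by 0.15 and Myh7 by -0.09. Of 26 ion channels, the potassium channel genes Kcnd2 (0.42, SE 0.15) and Kcne1 (0.45, SE 0.18) were higher and 0 lower.

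Of 34 tested genes used as signs of hypertrophy, 17 were above 0, 1 was higher and 4 lower at an unadjusted p under 0.05 (3.46% and 3.24% of all genes), and the median was 0.00. Nppa, atrial natriuretic peptide, read 13.02, 12.82 and 12.32 untreated and 12.03, 12.39 and 11.71 treated (-0.68, SE 0.21, limma adjusted p = 0.55). Within each mouse it was lower with Iso, although treated array 2 overlapped untreated array 3. Nppb, brain natriuretic peptide, read between 12.97 and 13.10 untreated, then 12.90, 12.77 and 12.64 (-0.25, SE 0.12, adjusted p = 0.742). Acta1 and the connective tissue growth factor Ccn2 (-0.47, SE 0.18) were the others. The higher one was Nmrk2, an enzyme of NAD synthesis, at 8.07, 8.19 and 7.97, then 9.01, 8.99 and 7.94 (0.57, SE 0.23); treated array 3 did not share the shift. The count of lower genes was 1 without treated array 3 and 2 without untreated array 2. Of 21 MEF2 factors, class IIa histone deacetylases and cardiac transcription factors, Mef2c was higher (0.35, SE 0.12) and 0 lower.

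Chromatin regulators tied to the design's question were measured at the RNA level only. Of 37 tested H3 serine 28 kinases and polycomb and trithorax subunits, 2 were higher and 0 lower at an unadjusted p under 0.05, with a median of 0.00. Pcgf1, a subunit of a variant polycomb repressive complex, read 6.09, 5.79 and 5.76 untreated and 6.38, 6.87 and 6.50 treated (0.71, SE 0.20, limma adjusted p = 0.46), and Aebp2, an accessory subunit of polycomb complex 2, differed by 0.32 (SE 0.14). A further list held 68 genes, most of them developmental transcription factors, that polycomb holds silent in many tissues. Of these, 27 were bright enough to test, and 0 reached an unadjusted p below 0.05. The brightest of them, the cell cycle inhibitor gene Cdkn2b and the transcription factor gene Irx3, differed by 0.28 and 0.09.

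Of 44 inflammatory cytokines, chemokines and NF-kB targets, 8 were higher and 1 lower at an unadjusted p under 0.05 (3.46% and 3.24% of all genes), with a median of 0.05 and medians of 0.23, 0.15 and -0.08 in mice 4, 5 and 6. Il1rn, which blocks the interleukin 1 receptor, read 5.56, 5.64 and 5.58 untreated and 6.36, 6.66 and 6.02 treated (0.75, SE 0.16, limma adjusted p = 0.333). The neutrophil chemokine Cxcl2 read 9.04, 8.19 and 9.31, then 10.19, 9.998 and 9.66 (1.10, SE 0.24, adjusted p = 0.333).

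Both genes were highest in mice 4 and 5 and lowest in mouse 6 among the treated arrays. The chemokine Ccl4 differed by 0.48 (SE 0.12) and Ccl5 by 0.55 (SE 0.15). In these 2 chemokines, picked by their p-values, the treated arrays lay above all untreated ones, as in 7.16% of all genes. Ccl2 differed by 0.55 (SE 0.29), with readings of 5.48, 5.97 and 6.66, then 7.14, 6.39 and 6.23 that overlapped, and Il6 by -0.17. The count of 8 was 13 without treated array 3 and 2 without both treated arrays 1 and 2. Macrophage and leukocyte markers, which could carry such genes, gave 1 higher (Cd14, a co-receptor for lipopolysaccharide, 0.67, SE 0.17) and 1 lower (Ms4a7) of 22, with a median of -0.06; their part in the result was not tested.

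Of 40 interferon-stimulated genes, 28 (70%) were above 0, against 47.8% of all genes. At an unadjusted p under 0.05, 6 (15%) were higher and 1 (2.5%) lower, against 3.46% and 3.24%. The median was 0.13, with 0.11, 0.20 and -0.10 in mice 4, 5 and 6. Ube2l6, the conjugating enzyme for the modifier ISG15, read 4.26, 4.32 and 4.71, then 5.33, 5.01 and 5.25 (0.76, SE 0.19, limma adjusted p = 0.429). Oasl1 differed by 0.43 (SE 0.17), Irf7 by 0.36 (SE 0.15) and Rsad2 by 0.53 (SE 0.22), the last 3 with overlapping groups. The count of 6 was 2 without treated array 1 and 3 without treated array 2 or untreated array 1 or 2, and without both treated arrays 1 and 2 the median was -0.08; with the atrial marker mean as a covariate the count was 1.

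The endothelial marker list was higher in the same 2 mice. Its median was 0.23, with 0.43, 0.41 and -0.09 in mice 4, 5 and 6, and 2 of 18 were higher at an unadjusted p under 0.05, namely the clotting factor Vwf (0.45, SE 0.14) and the phosphatase Ptprb (0.41, SE 0.18). Without both treated arrays 1 and 2 the median was 0.07. The median was -0.03 for 16 fibroblast markers, of which 10 were below 0, down to Ddr2 (-0.33), while the 2 brightest were above 0 (Dcn 0.34, Dpt 0.10). It was -0.03 for 15 smooth muscle and pericyte markers (Des -0.12, Abcc9 0.07) and 0.03 for 4 adipocyte markers (Fabp4 0.15, Cidea -0.09). Des and Abcc9, the brightest of the smooth muscle list, are made by myocytes as well, and Fabp4 is on the endothelial list too. The 3 neuronal markers had a median of 0.02 (Pmp22 0.29, Kcna1 -0.08) and 9 lymphocyte markers one of 0.06. Of 9 mesothelial markers, 7 were above 0, Upk1b was higher (0.95, SE 0.25) and the median was 0.17. The 2 erythroid markers tested had a median of 0.49, which lay between Alas2 (0.0016) and Hbb-bt (0.98, SE 0.37), while Hbb-bs and Slc4a1 were dim. Hbb-bt, a globin chain of red cells, read 9.002, 8.85 and 9.92 untreated and 10.31, 10.10 and 10.29 treated.

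Of 29 tested genes of endoplasmic reticulum stress, 6 were above 0 (47.8% of all genes), 0 were higher and 6 lower at an unadjusted p under 0.05 (3.46% and 3.24% of all genes), and the median was -0.18, with -0.16, -0.11 and -0.17 in mice 4, 5 and 6. Sdf2l1, a chaperone cofactor in the endoplasmic reticulum, read 6.64, 6.25 and 6.72 untreated and 5.55, 5.69 and 5.42 treated (-0.98, SE 0.22, limma adjusted p = 0.333). Pdia4, a disulfide isomerase, read 7.53, 7.60 and 7.85, then 7.38, 7.28 and 7.07 (-0.42, SE 0.15), and Manf, a secreted stress factor, 9.71, 9.46 and 9.62, then 9.34, 9.10 and 9.35 (-0.34, SE 0.12).

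Sel1l, part of the machinery that removes misfolded proteins, differed by -0.34 (SE 0.11). The other 2, named after their values were seen, were the pseudokinase Trib3 (-0.33, SE 0.14) and Creld2 (-0.39, SE 0.17). All 6 had treated arrays below all untreated ones, as in 8.42% of all genes, but they were picked by their p-values. The count was 3 without untreated array 3 and 2 without both treated arrays 1 and 2, and the median was -0.07 with the atrial marker mean as a covariate.

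At an unadjusted p under 0.05, 3.46% of all genes were higher and 3.24% lower. Among 19 vacuolar proton pump genes, 0 were higher and 3 (15.8%) lower, and the median was -0.11. Besides Atp6v1g1 these were the membrane subunit Atp6v0a1, at 6.71, 6.76 and 6.69, then 6.36, 6.23 and 6.35 (-0.40, SE 0.11, limma adjusted p = 0.458), and Atp6v1h (-0.37, SE 0.16). No member came near the size of the difference of Atp6v1g1. The count of 3 was 6 without untreated DKO array 3. Of 30 ubiquitin-conjugating enzymes 3 were higher and 3 lower, among them Ube2a, Ube2l6, Ube2g2 (0.56, SE 0.23) and Ube2d1 (-0.32, SE 0.13). Of 37 proteasome subunits 1 was lower (Psmd5, -0.30, SE 0.13), and of 50 cytosolic ribosomal proteins 4 were higher (Rpl31 0.54, Rps4l 0.70, Rps19 0.53 and Rpl22l1 0.54) with a median of -0.05.

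Among metabolic genes, Pdk4, which turns the heart from glucose to fatty acids by blocking pyruvate dehydrogenase, read 11.20, 11.25 and 11.38 untreated and 11.61, 11.69 and 11.75 treated (0.40, SE 0.12, limma adjusted p = 0.46). Cpt1a, the gate of fatty acids into mitochondria, differed by 0.50 (SE 0.14), Hadhb of beta oxidation by 0.77 (SE 0.26), and the lipase Mgll by -0.41 (SE 0.16). Of 37 genes of fatty acid use, 27 (73.0%) were above 0, against 47.8% of all genes, and the median was 0.11. At an unadjusted p under 0.05, 4 (10.8%) were higher and 1 (2.70%) lower, against 3.46% and 3.24%.

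Of 40 genes of glucose use, 3 were higher and 2 lower, with a median of 0.05. The glucose transporter Slc2a3 read 3.58, 3.75 and 3.37, near the array median, then 4.06, 4.18 and 4.16 (0.57, SE 0.12, limma adjusted p = 0.333). Ldhb, a lactate dehydrogenase subunit, differed by 0.29 (SE 0.11), and Pfkl, a phosphofructokinase, by -0.42 (SE 0.16). Of 78 oxidative phosphorylation subunits, 2 were higher (Atp5h 0.61, Ndufa11 0.39) and the median was 0.01.

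Fbxo32, the muscle ubiquitin ligase of atrophy, read 5.90, 6.47 and 6.04 untreated and 6.84, 6.68 and 6.83 treated (0.64, SE 0.14, limma adjusted p = 0.333). In the same list of 32 atrophy, FoxO and autophagy genes Cblb (0.35, SE 0.14) and Foxo4 (0.35, SE 0.15) were higher and the deubiquitinase Usp2 was lower (-0.47, SE 0.12). Of 22 clock genes, Per3 (0.38, SE 0.15) and Nr1d2 were higher, and Usp2 and the repressor Bhlhe40 (-0.52, SE 0.17) lower. Hmox1, which degrades heme, read 8.70, 8.43 and 8.91, then 9.48, 9.16 and 9.13 (0.58, SE 0.16, adjusted p = 0.458), and the peroxidase Prdx1 differed by -0.68 (SE 0.22). Of 39 matrix genes, Thbs1 (0.73, SE 0.22) and Col8a1 (0.24, SE 0.11) were higher and the protease Mmp14 lower (-0.29, SE 0.12). Of 25 cell cycle genes, the inhibitor Cdkn1b was lower (-0.32, SE 0.12).

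**Figure D5:**
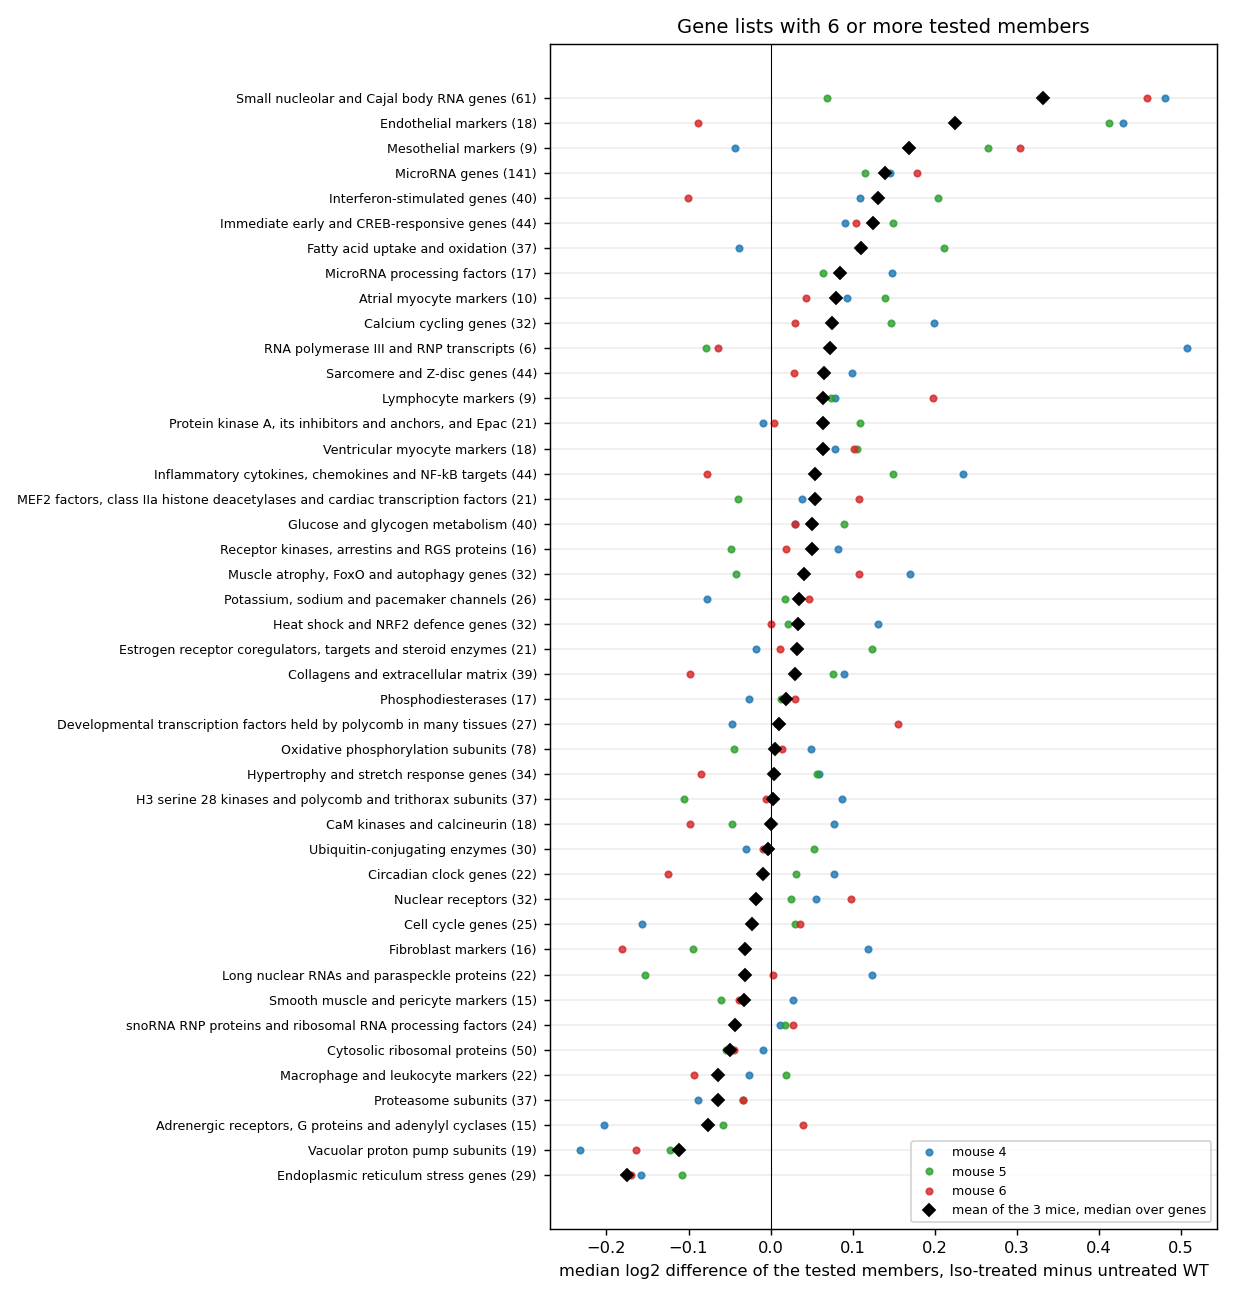
Median log2 difference with Iso in WT over the tested members (number in brackets) of each list with 6 or more of them; diamonds are medians of the mean difference and dots are medians within mouse 4, 5 and 6. Small nucleolar RNA genes (0.33) are at the top and endoplasmic reticulum stress genes (-0.18) at the bottom, and for endothelial and interferon-stimulated genes mouse 6 lies on the other side of 0 from mice 4 and 5.

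Whether the Iso difference depended on the genotype was tested as an interaction, the difference in DKO minus that in WT, which uses the same WT arrays. In limma's test 2 genes passed (0.0146%), Mir5112 and Mir1932, and 1388 (10.1%) had an unadjusted p under 0.05. For Esr1 the interaction was -3.37 (SE 0.54, adjusted p = 0.102). With the mouse as a fixed block 5 genes passed. Leaving out untreated DKO array 2 gave 16 genes, leaving out untreated DKO array 3 gave 7, and leaving out treated WT arrays 1 and 2 together gave 4. Across all genes the Iso differences in WT and in DKO correlated at 0.064.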

How the data were processed

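Affymetrix arrays were hybridised with biotinylated cRNA from Trizol-extracted total RNA, per the labels' protocols. The deposited values are log2 expression per probe set, summarised by the authors with RMA, per the submitters' processing notes; the sources used here do not give its version, the array type or the annotation build. The sorted values of arrays 2 to 12 were identical and those of array 1 differed by at most 0.0019, so the arrays share 1 distribution, and values ran from 2.25 to 13.8. Raw array files were not used here. The table carries no detection call, so low readings have no tested background.

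Of 25428 probe sets, 24705 had 1 gene symbol and 723 none. They gave 24704 genes. Genes above the array median on at least 3 of 12 arrays were kept (13737), and the other 10967 were called dim. Using limma 3.58.1 (R 4.3.3), a model was fitted of 4 group means over 12 arrays with moderated variances. Benjamini-Hochberg adjustment covered all genes kept, and an adjusted p below 0.05 counted as passing. SE is limma's, and the script was tested on simulated data. Gene lists are described by counts and medians, with no test. Members counted as higher or lower had an unadjusted p under 0.05. Over all genes tested those shares were 3.46% and 3.24%.

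Members and lists were chosen with earlier results of these data known. Named were genes that passed, the 12 smallest p-values and the 8 largest separated differences in each direction among genes with proper names, up to 4 members per list, and a fixed set. Among these, predicted and clone-named genes were left out. Genes picked by a small p-value tend to have separate groups, so their separation is no further support. The 2 arrays of a mouse pair by the mouse number in the labels. Their deviations from the group means correlated at -0.0623, 0.0566 and 0.0109 in the WT mice and at 0.00733, 0.0864 and 0.130 in the DKO mice. Enclosing genes and promoters came from RefSeq tables of GRCm38.p6. RNA sequences matched for 2 of the 4 microRNA genes named.

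Alternatives were other filters on dim genes, median centring, quantile scaling, a trended and robust eBayes step, weights per array, the mouse as a block (random, then fixed), the 6 WT arrays alone, the atrial marker mean as a covariate, no small RNA genes, no treated WT arrays 1 and 2, and each array left out in turn. The mouse as a fixed block with only the 6 WT arrays was added after the data were seen.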

Additional observations from a re-analysis of the deposited data

Results flagged for a closer look

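The Iso difference of 2 genes differed between genotypes by limma's test of the difference itself. For Mir5112 the difference in DKO minus that in WT was -4.52 (SE 0.33, adjusted p = 7.87e-05). On the DKO arrays this gene read 7.45, 7.18 and 7.88 without Iso and 6.96, 7.39 and 7.501 with it, so the untreated DKO arrays lay above the untreated WT arrays and the treated ones below the treated WT arrays. For Mir1932 the difference was -2.83 (SE 0.32, adjusted p = 0.00642). It read 4.08, 3.70 and 4.51 on the untreated and 3.96, 3.91 and 3.57 on the treated DKO arrays, where the groups overlapped. Both genes were singled out by their difference in WT, and the interaction uses the same WT arrays.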

How the results depend on the processing

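The count of genes that passed with Iso in WT, 3 as reported, was 5 with trend and robust settings, 6 with array weights, 6 with only the 6 WT arrays, 5 with the atrial marker mean as a covariate and 0 without small non-coding RNA genes. With the mouse as a replicate block it was 5 as a random block, 3 as a fixed block and 5 as a fixed block with only the 6 WT arrays. Leaving out each array in turn gave 2 to 8. The interaction count, 2 as reported, was 51 with array weights, 5 with the mouse as a fixed block, 4 without both treated WT arrays 1 and 2, 0 without small non-coding RNA genes (1360 at an unadjusted p under 0.05) and 2 to 16 on leaving out each array in turn. The setting without small non-coding RNA genes removes Mir5112 and Mir1932 themselves, which were both interaction calls and 2 of the 3 Iso calls. There Esr1 kept its difference of 2.72, with a limma adjusted p of 0.109. The cause of the other changes was not tested. Of 26 settings, Mir5112 and Mir1932 passed in 25 and were left out of the other, Esr1 passed in 13, Atp6v1g1 and Snord71 in 6, Snord17 in 4 and Neat1 in 1. Beside the main fit, the random block added the calls of Atp6v1g1 and Snord71. The fixed block with only the 6 WT arrays added those of Neat1 and Snord17. Among the genes followed, no other call differed between a block and the main fit. In the 6 WT arrays without the block Snord17 passed too (limma adjusted p = 0.0472). Snord71 (0.0374) and a further microRNA gene (0.0472) passed there, but not with the fixed block. The numbers of higher and lower genes at an unadjusted p under 0.05 were 305 and 320 without untreated WT array 1, 720 and 790 without untreated DKO array 3, 772 and 833 with array weights, and 679 and 747 with only the 6 WT arrays. With array weights, list counts of higher genes were 48 of small RNA genes, 19 of small nucleolar RNAs, 27 of microRNAs, 14 of inflammatory and 10 of calcium cycling genes, and 5 vacuolar pump genes were lower.

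Of 4086 alternative values of 164 genes, 41 values of 21 genes had the opposite direction, all of them in genes that did not pass. Without both treated WT arrays 1 and 2 they were Sln (-1.82), Myl7 (-0.71), Fabp4 (-0.23), Rnf213 (-0.14), Nmrk2 (-0.14), Atp2a2 (-0.059), Ap1g1 (-0.033), Abcc9 (-0.029), Nr4a2 (-0.019), Camk2d (-0.013), Per1 (-0.011), Irx3 (-0.0059) and Kcna1 (0.028). With the atrial covariate they were Sln (-0.10), Atp2a2 (-0.018) and Per1 (-0.0012). Snx5 was 0.0013 with quantile scaling and 0.020 with array weights, where Rgs12 was -0.019. On leaving out each array in turn, values crossed 0 in Abcc9 (-0.040 to 0.14), Atp2a2 (-0.042 to 0.031), Cidea (-0.20 to 0.074), Dpt (-0.022 to 0.19), Fabp4 (-0.083 to 0.34), Il6 (-0.40 to 0.047), Irx3 (-0.074 to 0.21), Myh7 (-0.28 to 0.077), Nr4a3 (-0.14 to 0.050), Pde3a (-0.32 to 0.15), Per1 (-0.056 to 0.19), Snx5 (-0.072 to 0.065) and Rgs12 (-0.030 to 0.15).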
